A study of Mus musculus with 18 samples.

Results

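Dopamine neurons of the midbrain were compared between mice killed a week after a short course of the neurotoxin MPTP and mice that had received saline, pooling neurons of 2 regions, the ventral tegmental area (VTA) and the substantia nigra (SN). The comparison holds 12 of the 18 arrays of the series, 6 of saline and 6 of 2 days of MPTP, and in each set 3 arrays are from SN and 3 from VTA. The arrays were chosen by treatment label alone, and region was a covariate, so that a gene's difference is the average of its differences in SN and in VTA, which need not be alike. The remaining 6 arrays, from mice given MPTP for 10 days, serve only for values side by side.

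MPTP crosses into the brain and is oxidised in glia to MPP+, which the dopamine transporter carries into dopamine neurons, where it blocks complex I of the mitochondrial respiratory chain. Dopamine neurons of the SN are the more readily lost after MPTP and in Parkinson disease, and those of the VTA are relatively spared. The dopamine phenotype rests on tyrosine hydroxylase and aromatic amino acid decarboxylase for synthesis, on the vesicular and plasma membrane transporters for storage and reuptake, and on a set of transcription factors that are kept active through adult life.

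All mice were singly housed adult C57Bl/6 animals with an hTH-GFP transgene, in which human tyrosine hydroxylase sequences drive a fluorescent protein, and the neurons were collected by laser capture. MPTP was given at 4 mg/kg for 2 days. Control mice received saline for 10 days according to the series' design text, whereas the sample descriptions call them untreated, so by the design text the groups also differ in days of injection. All were killed 7 days after the last injection. The labels describe the replicates as biological and do not say which arrays share a mouse, how many mice an array holds or how the neurons were recognised. If SN and VTA arrays of the same number share a mouse, the p-values below may be too small.

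The signals are log2 values centred on each probe set's median over the 18 arrays, so a value of 0 is that median and no absolute level is known. Whether dopamine neuron markers were abundant in the captured material therefore cannot be read from these values. The SD of the values of an array was 0.59 on VTA array 1 of the 2 day group, 0.502 on SN control array 1 and 0.252 to 0.422 on the other 10 arrays. Over 18193 genes the median difference between 2 days of MPTP and saline was -0.02 on the log2 scale, and the median size of a difference was 0.118. Of all genes, 54.7% had a lower and 45.3% a higher mean signal after MPTP.

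After 2 days of MPTP, Wdfy1 fell in both regions and 9530059O14Rik, Rskr and Fmo2 rose in both regions. These 4 of 18193 genes (0.022%) passed limma's test at a Benjamini-Hochberg adjusted p under 0.05, with 3 higher (0.0165% of all genes) and 1 lower (0.0055%). Each of them separated the 6 treated from the 6 control arrays without overlap within SN and within VTA, which 315 genes (1.73%) did in the same direction, 0.984% being higher and 0.748% lower. The size of the changes lay between 1.73-fold and 2.22-fold. With 1 array left out the count ran from 0 (without SN array 2 of the 2 day group) to 32 (without VTA control array 1), and it was 0 when each gene was read from its probe set of largest SD. The count was also 0 when same-numbered SN and VTA arrays were averaged. With each probe set tested singly, Wdfy1 was the 1 gene of the 4 that kept a call, and the smallest adjusted p of a probe set of 9530059O14Rik, Rskr or Fmo2 was 0.0828. An unadjusted p under 0.05 was found for 1909 genes (10.5%), of which 898 (4.94%) were higher and 1011 (5.56%) lower.

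Wdfy1 encodes an endosomal protein with a phosphoinositide-binding FYVE domain that takes part in Toll-like receptor signalling. Its centred log2 signals in SN were -0.10, 0.04 and 0.29 on the control arrays and -0.72, -0.79 and -0.69 after 2 days of MPTP. In VTA they were 0.07, 0.38 and 0.09 on the control arrays and -1.16, -0.82 and -0.89 after MPTP. All 6 treated arrays lay below all 6 controls. The pooled difference was -0.97 ± 0.11 (SE, 6 arrays per group, limma adjusted p = 0.0103), or 1.96-fold lower, with -0.81 in SN and -1.13 in VTA. Of the 5 probe sets of Wdfy1, 4 were lower, and they ranged from -1.70 to 0.03, so that the gene's mean covers probe sets that did not move alike. The call held in 11 of the 12 fits that left out 1 array each.

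The transcript 9530059O14Rik, which is known only by its clone name, had the largest rise among the genes that passed. Its signals in SN were -1.21, -0.45 and -0.68 in controls and 0.17, 0.52 and 0.27 after MPTP. In VTA they were -0.92, -0.60 and -0.53 in controls and 0.55, 0.64 and 0.37 after MPTP. The groups did not overlap, and every control array was below 0 and every treated array above it. The difference was 1.15 ± 0.13 (limma adjusted p = 0.0103), or 2.22-fold, and both probe sets were higher, at 0.86 and 1.44. This call also held in 11 of 12 fits with 1 array left out.

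Rskr encodes a kinase related to ribosomal protein S6 kinases. Its signals were -0.30, -0.48 and -0.75 in SN controls against 0.23, 0.48 and 0.17 after MPTP, and -0.08, -0.26 and -0.21 in VTA controls against 0.77, 0.45 and 0.56 after MPTP. All treated arrays were above 0 and all controls below it. The difference was 0.79 ± 0.105 (limma adjusted p = 0.0286), close in SN and VTA at 0.80 and 0.78, and its 2 probe sets were at 0.33 and 1.25. Fmo2 encodes a flavin-containing monooxygenase, an enzyme that oxidises nitrogen- and sulphur-containing foreign compounds. Its signals were -0.46, 0.11 and -0.08 in SN controls against 1.05, 1.03 and 0.73 after MPTP, and -0.29, 0.00 and 0.04 in VTA controls against 1.03, 0.67 and 0.49 after MPTP. The lowest treated array stood above the highest control array. The difference was 0.95 ± 0.13 (limma adjusted p = 0.0405), with 1.08 in SN and 0.82 in VTA, and its 5 probe sets were all higher, from 0.02 to 2.13. The calls of Rskr and Fmo2 were less stable than those above, since each held in 5 of the 12 fits with 1 array left out.

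**Figure D1:**
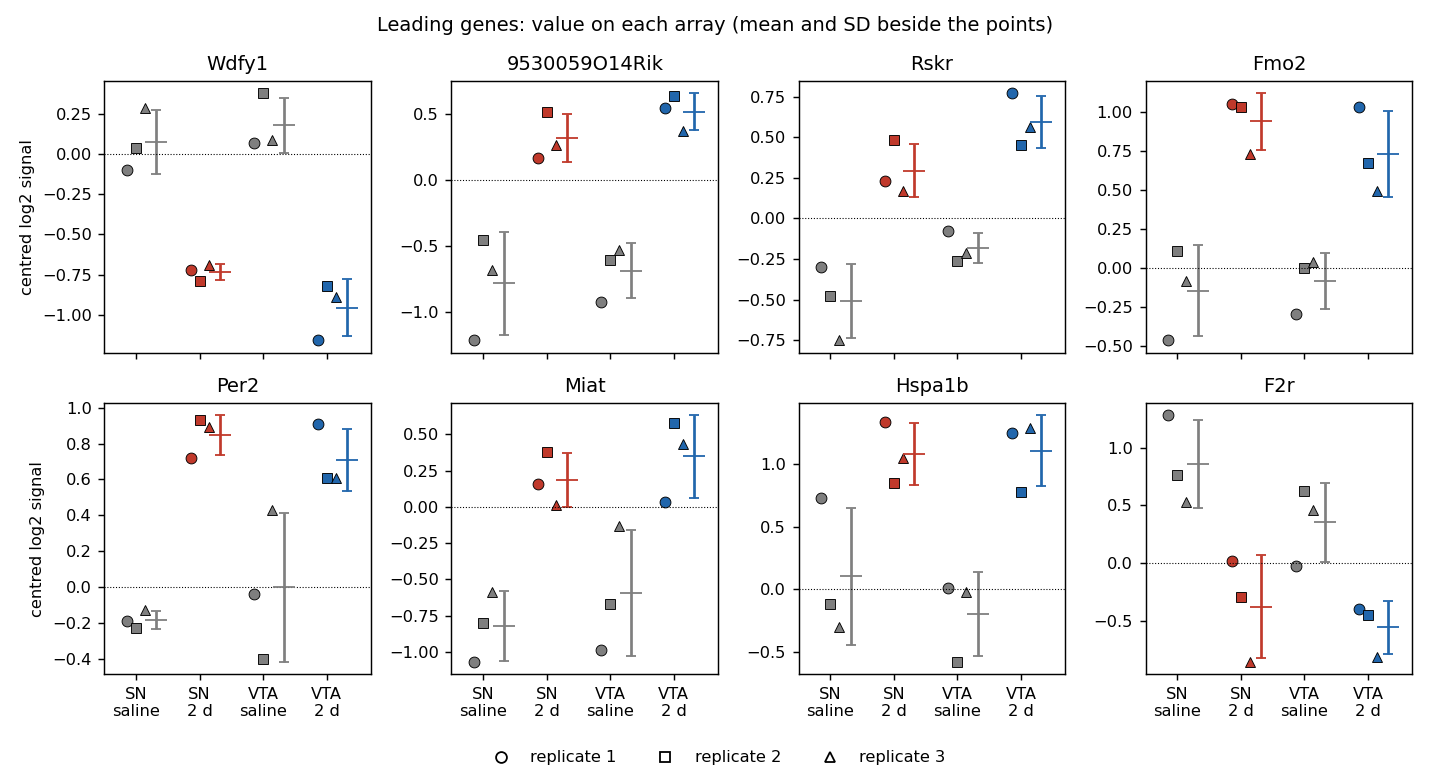
Centred log2 signal (y axis, 0 is the probe set's median over 18 arrays) of 8 genes on each of the 12 arrays, grouped by region and treatment (x axis). Points are arrays, with circles, squares and triangles for replicates 1, 2 and 3, and the bars beside them show mean and SD of 3 arrays. Wdfy1 lies between -1.16 and -0.69 on the 6 treated arrays and between -0.10 and 0.38 on the controls.

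A looser threshold gave a wider set to read beside these 4. At an adjusted p under 0.1 there were 46 genes (0.253%), 35 higher (0.192%) and 11 lower (0.0605%). Of the 46, 43 had no overlap between treated and control arrays in either region, against 1.73% of all genes. None of the genes first described from here on passed the threshold of 0.05 in the fit with all 12 arrays, so their values are given as differences that did not pass. All 46 had the same sign in SN and in VTA, against 58.8% of all genes. A small pooled p by itself favours arrays without overlap and like signs, so neither count is separate support for a shared response.

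Of the higher genes nearest to the threshold, Miat, Mir124a-1hg, Snhg11 and Meg3 are long noncoding transcripts. Miat, a nuclear RNA of neurons, was at -1.07, -0.80 and -0.59 in SN controls and 0.16, 0.38 and 0.01 after MPTP, and at -0.99, -0.67 and -0.13 in VTA controls and 0.03, 0.58 and 0.43 after MPTP. All 6 treated arrays were above 0 and all 6 controls below it. The difference was 0.97 ± 0.15 (adjusted p = 0.0556). Mir124a-1hg, the host transcript of a copy of the neuronal microRNA miR-124, was at 1.05 ± 0.17 (adjusted p = 0.0556), and Snhg11, a host transcript of small nucleolar RNAs, at 0.78 ± 0.13 (adjusted p = 0.0684). The maternally expressed imprinted transcript Meg3 was at 0.81 ± 0.15 (adjusted p = 0.077), and all 11 of its probe sets were higher, from 0.44 to 1.44. Rian, from the same imprinted cluster, was at 0.52 ± 0.15 (adjusted p = 0.219), and Dlk1, the paternally expressed gene of that cluster and a gene of dopamine neuron identity, was at -1.10 ± 0.39 (adjusted p = 0.327). The nuclear transcript Malat1 was at 0.24 ± 0.10 (adjusted p = 0.44), with all 7 probe sets higher. Meg3, Rian, Dlk1 and Malat1 were chosen after their values were seen, and no test was made of noncoding transcripts as a group.

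Among protein-coding genes higher after MPTP, Ccdc153, a gene of ciliated cells, had a difference of 1.45 ± 0.23 (adjusted p = 0.0556), with 1.00 in SN and 1.90 in VTA. Prkg2, the cyclic GMP-dependent protein kinase II, was at 0.76 ± 0.12 (adjusted p = 0.0556), and 3 probe sets read it between 0.69 and 0.81. Car4, a membrane-bound carbonic anhydrase, was at 0.79 ± 0.13 and Reln, the secreted matrix protein reelin, at 0.65 ± 0.12 (adjusted p = 0.0684 and 0.0872). Esr1, the oestrogen receptor alpha gene, was at 1.10 ± 0.19 (adjusted p = 0.0684), with all 3 probe sets higher, and Sox11, a transcription factor of developing neurons, at 0.69 ± 0.13 (adjusted p = 0.0981). Kcnv1, which encodes a modifying subunit of voltage-gated potassium channels, was at 0.92 ± 0.17 and Slc30a3, the zinc transporter of synaptic vesicles, at 0.92 ± 0.16 (adjusted p = 0.0872 and 0.0732). The last 4 genes were chosen after their values were seen.

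Fewer genes came close to the threshold on the lower side. F2r encodes the thrombin receptor PAR1, and its signals in SN were 1.28, 0.76 and 0.53 in controls and 0.02, -0.30 and -0.86 after MPTP. In VTA they were -0.03, 0.62 and 0.46 in controls and -0.40, -0.45 and -0.82 after MPTP. The groups did not overlap within a region, although VTA control array 1 lay just below the highest treated SN array. The difference was -1.07 ± 0.18 (adjusted p = 0.0684), and its 2 probe sets were alike, at -1.09 and -1.06. Pop4, a subunit of ribonuclease P, was at -0.88 ± 0.15 (adjusted p = 0.0684), and the F-box gene Fbxw17 at -0.78 ± 0.14 (adjusted p = 0.0872). Emilin2, an extracellular matrix glycoprotein, was at -0.94 ± 0.18, and its highest value of 1.55 came from SN control array 1, with 0.16 to 0.65 on the other controls. Niban1, Ppp1r14a, Scpep1 and Trim25 were at -0.86, -0.81, -0.62 and -0.57, and Bloc1s5, a subunit of a complex that forms lysosome-related organelles, at -0.48 (adjusted p = 0.0981 for each of these and for Emilin2).

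The responses of SN and VTA were not told apart for any gene. The difference between the VTA and the SN response had an adjusted p under 0.05 for 0 of 18193 genes (0%), and 488 (2.68%) had an unadjusted p under 0.05, and the smallest adjusted p was 1. Tested in SN alone or in VTA alone with the 4 group means of these 12 arrays, 0 genes passed (0% in each), with 1096 (6.02%) and 1284 (7.06%) at an unadjusted p under 0.05. Across genes, which are not independent replicates, the 2 responses had a Pearson r of 0.354 and a Spearman rho of 0.282, and 58.8% of genes had the same sign in both. With 3 arrays per group in a region, a difference between regions that was not detected is not shown to be absent.

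**Figure D2:**
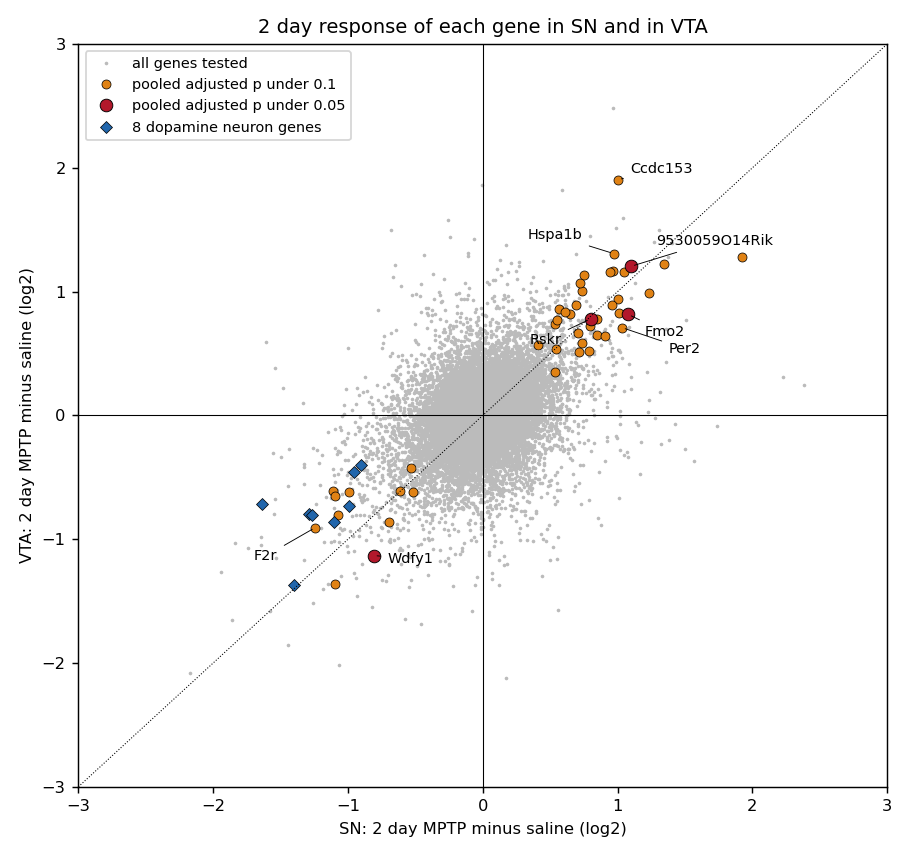
Difference between 2 days of MPTP and saline in SN (x axis, log2) against that in VTA (y axis, log2) for 18193 genes. The 4 genes with a pooled adjusted p under 0.05 lie near the diagonal, Wdfy1 at -0.81 and -1.13 and Rskr at 0.80 and 0.78, and the 8 dopamine neuron genes lie in the lower left quadrant.

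The 250 bases upstream of the transcript start were taken from RefSeq's GRCm38.p6 annotation, which matched 9 of 12 genes looked up. Shown are windows of 5 of these genes, each with an adjusted p under 0.1, chosen because they hold a match, so the matches say nothing of how often such genes hold one. The windows of Miat and Plin4, whose adjusted p was also under 0.1, held no match to any motif searched and are not shown. All windows were searched on both strands for the E-box CACGTG and the related CACGTT, both bound by clock transcription factors, the D-box TTATGTAA, the heat shock core GAANNTTC, the longer heat shock element, the cAMP response element TGACGTCA, the full glucocorticoid response element and its 6-base first part AGAACA. Capitals mark the matches to the E-box, the CACGTT motif, the D-box or the heat shock core.
Fmo2 (chr1:162898494-162898743, minus strand): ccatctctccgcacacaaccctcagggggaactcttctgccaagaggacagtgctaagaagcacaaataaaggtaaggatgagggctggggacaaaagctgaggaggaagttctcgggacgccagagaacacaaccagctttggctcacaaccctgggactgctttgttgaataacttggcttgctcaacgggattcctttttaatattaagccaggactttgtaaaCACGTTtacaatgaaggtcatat
9530059O14Rik (chr9:122572251-122572500, plus strand): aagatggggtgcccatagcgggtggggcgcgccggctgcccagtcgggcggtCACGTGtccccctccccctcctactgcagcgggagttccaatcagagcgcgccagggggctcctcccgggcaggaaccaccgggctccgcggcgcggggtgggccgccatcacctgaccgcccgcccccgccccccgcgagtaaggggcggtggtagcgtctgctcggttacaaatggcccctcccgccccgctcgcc
Rskr (chr11:78290591-78290840, plus strand): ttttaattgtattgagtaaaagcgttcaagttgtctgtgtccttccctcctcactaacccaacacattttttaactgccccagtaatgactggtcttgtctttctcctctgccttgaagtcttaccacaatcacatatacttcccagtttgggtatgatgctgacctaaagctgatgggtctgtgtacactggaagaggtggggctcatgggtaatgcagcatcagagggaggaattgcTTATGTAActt
Per3 (chr4:151044666-151044915, minus strand): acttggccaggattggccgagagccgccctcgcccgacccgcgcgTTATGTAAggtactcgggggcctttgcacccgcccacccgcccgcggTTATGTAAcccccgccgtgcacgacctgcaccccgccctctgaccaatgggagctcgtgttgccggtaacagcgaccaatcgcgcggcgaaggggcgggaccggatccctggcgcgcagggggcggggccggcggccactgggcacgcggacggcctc
Hspa1b (chr17:34959239-34959488, minus strand): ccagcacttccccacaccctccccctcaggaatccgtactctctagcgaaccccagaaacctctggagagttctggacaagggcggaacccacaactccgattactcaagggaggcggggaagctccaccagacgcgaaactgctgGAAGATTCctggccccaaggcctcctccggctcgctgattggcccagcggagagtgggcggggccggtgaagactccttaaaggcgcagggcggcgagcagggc

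Fmo2 has 2 annotated starts, and the motif CACGTT lay 23 bases before that of the window shown, while the window of the other start held no match to any motif. Of 32851 mouse promoter windows of this length, 3.85% hold CACGTT. The Fmo2 window shown also held AGAACA, which is found in 16.1% of windows, while the full glucocorticoid response element was in 0.00913% of windows and in none of those shown. The E-box upstream of 9530059O14Rik, at 198 bases, is found in 6.02% of windows. A D-box, found in 0.819% of windows, lay 11 bases before the start of Rskr and 205 and 158 bases before that of Per3. The heat shock core upstream of Hspa1b, at 104 bases, is found in 6.69% of windows, while the longer heat shock element is found in 0.466% and the cAMP response element in 1.55%, and neither was in the windows shown. A match describes these letters only.

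Genes that define dopamine neurons had lower mean signals after 2 days of MPTP, without any of them passing the test. Of 24 measured genes of dopamine neuron identity, 23 had a lower mean, 0 passed, and 17 were lower at an unadjusted p under 0.05, where 5.56% of all genes were. The median difference of the list was -0.86, against -0.02 for all genes, with -0.99 in SN and -0.56 in VTA, and 22 of the 24 were lower in both regions. In SN, 19 of the 24 had no overlap between treated and control arrays, all lower (of all genes, 8.56% were so lower and 5.96% so higher), and in VTA 1 was lower without overlap (4.92% lower and 5.1% higher of all genes). In tissue collected by capture, fewer dopamine neurons per array and less of their RNA per cell cannot be told apart.

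For dopamine synthesis, the Th signals, those of tyrosine hydroxylase, were 1.45, 0.59 and 0.57 in SN controls and -0.27, -0.12 and -0.87 after MPTP. In VTA Th was at -0.90, 1.01 and 1.15 in controls and at -0.81, 0.46 and -0.77 after MPTP. The SN arrays separated, and the VTA arrays overlapped because control array 1 lay below all 3 treated arrays. The pooled difference was -1.04 ± 0.36 (adjusted p = 0.308), with -1.29 in SN and -0.79 in VTA. Ddc, aromatic amino acid decarboxylase, was at -0.65 ± 0.24 (adjusted p = 0.349). Gch1, which makes the pterin cofactor of tyrosine hydroxylase, was at -1.18 ± 0.44 (adjusted p = 0.357), whereas Pts, a later enzyme of that cofactor's synthesis, was at 0.03 ± 0.27 and was the 1 gene of the list without a lower mean.

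For transport and storage, Slc6a3, the plasma membrane dopamine transporter through which MPP+ enters, was at 1.00, 0.48 and 0.42 in SN controls and -0.33, -0.11 and -0.53 after MPTP. In VTA it was at -0.98, 0.59 and 0.50 in controls and -1.09, 0.11 and -0.30 after MPTP. Again the SN groups did not overlap and VTA control array 1 lay among the treated arrays. The difference was -0.71 ± 0.28 (adjusted p = 0.383). Slc18a2, the vesicular monoamine transporter that stores dopamine and sequesters MPP+, was at -0.86 ± 0.32 (adjusted p = 0.349).

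Among receptors, Drd2, the autoreceptor for dopamine, was at -1.39 ± 0.38 (adjusted p = 0.206), and was similar in SN and VTA at -1.40 and -1.37. The nicotinic subunits Chrna6 and Chrnb3, which dopamine neurons place on their terminals, were at -1.32 ± 0.40 and -1.35 ± 0.50 (adjusted p = 0.255 and 0.357). Ret, the signalling receptor for GDNF family ligands, had signals of 1.23, 0.70 and 0.51 in SN controls and -0.55, -0.19 and -0.63 after MPTP, and 0.03, 1.04 and 0.84 in VTA controls and -0.27, 0.33 and -0.56 after MPTP. In VTA a single treated array, at 0.33, lay above the lowest control. The difference of Ret was -1.04 ± 0.21 (adjusted p = 0.11), the smallest p of the list, and that of its co-receptor gene Gfra1 was -0.93 ± 0.21 (adjusted p = 0.138). Ntsr1, the neurotensin receptor of dopamine neurons, was at -1.25 ± 0.35 (adjusted p = 0.206).

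The transcription factors of the list differed in size. Foxa1 was at -0.98 ± 0.21 (adjusted p = 0.128) and En2 at -0.96 ± 0.26 (adjusted p = 0.203). Foxa2 was at -0.50 ± 0.26, En1 at -0.46 ± 0.46, Lmx1b at -0.39 ± 0.16, Nr4a2 at -0.25 ± 0.10, Pitx3 at -0.22 ± 0.14 and Lmx1a at -0.20 ± 0.23 (adjusted p from 0.379 to 0.818). These factors other than Foxa1, and Gch1, Chrna6 and Chrnb3, were named after their values were seen.

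**Figure D3:**
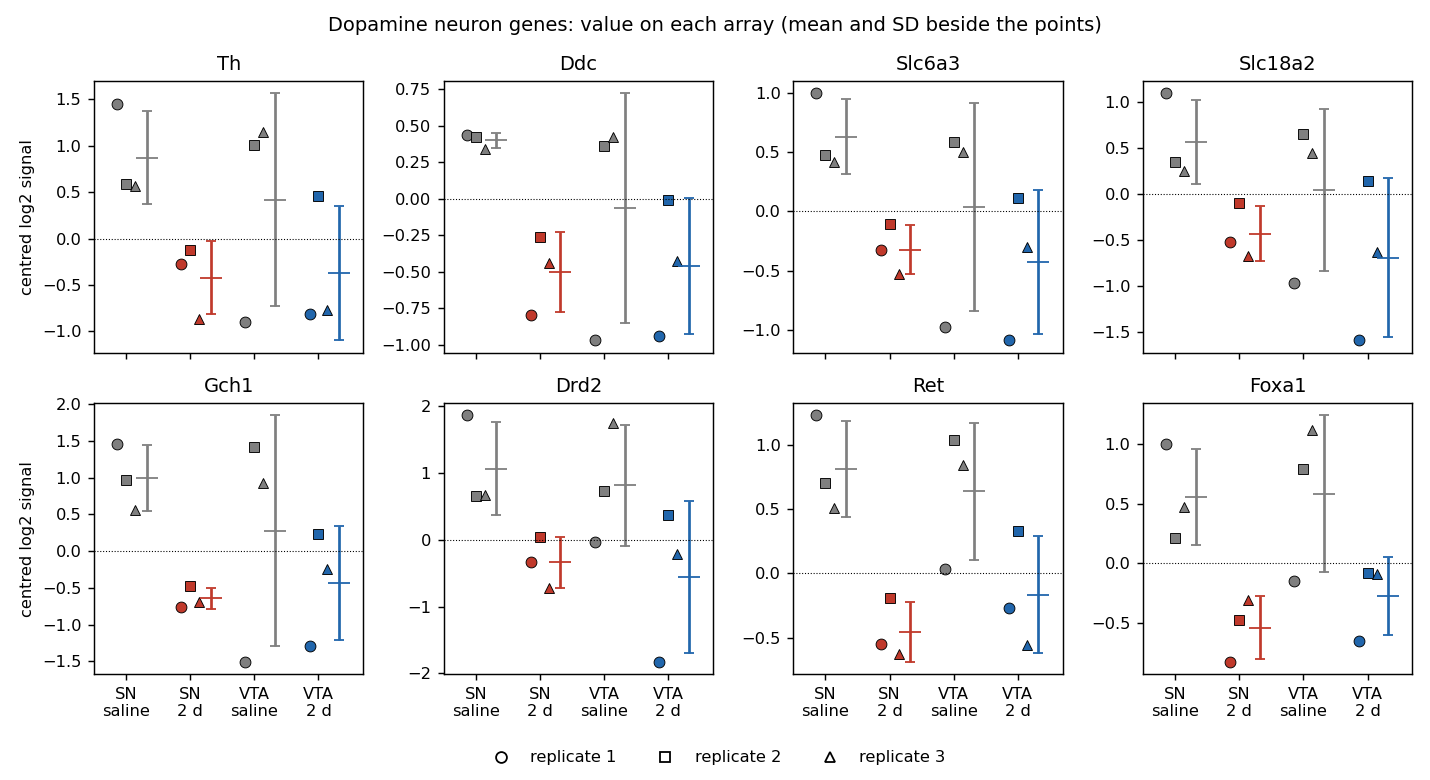
Centred log2 signal (y axis) of 8 dopamine neuron genes on each of the 12 arrays by region and treatment (x axis), with mean and SD of 3 arrays beside the points. In SN treated and control arrays are apart for all 8 genes, and VTA control array 1 (grey circle) has a Th value of -0.90, below the 6 treated arrays, and a Slc6a3 value of -0.98, between treated VTA arrays.

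VTA control array 1 stood apart from the other controls in these genes. The mean of the identity list on that array was -0.548, against 0.356 to 0.791 on the other 5 control arrays and -0.789 to 0.118 on the 6 treated arrays. Without it the median of the list was -1.08, all 24 genes were lower and 18 were lower at an unadjusted p under 0.05 (of all genes, 6.01% were lower and 5.29% higher at that p). Limma then called 32 genes, 14 higher (0.077%) and 18 lower (0.0989%), and among the lower ones were 6 of the list, namely Sncg at -1.18, Foxa1 at -1.16, Ret at -1.20, Gch1 at -1.63, Gfra1 at -1.09 and Chrna6 at -1.68 (adjusted p from 0.0171 to 0.0499). Th was at -1.36 ± 0.25 without it and did not pass (adjusted p = 0.0671). The array was singled out by the same genes, so these calls are not independent evidence. The 4 genes that passed with all 12 arrays also passed without it. The lowest list mean, -0.789, came from VTA array 1 of the 2 day group. Leaving out that treated array instead gave -0.85 for Sncg, -0.91 for Foxa1 and -1.04 for Ret. With all 12 arrays these were -0.86, -0.98 and -1.04. It gave -1.04 for Gch1, -0.85 for Gfra1, -1.12 for Chrna6 and -0.97 for Th. With all 12 arrays these were -1.18, -0.93, -1.32 and -1.04. The highest list mean, 0.791, came from SN control array 1. Leaving out that control array gave -0.75 for Sncg, -0.87 for Foxa1, -0.92 for Ret and -0.89 for Th. Gch1 was then at -1.02, Gfra1 at -0.81 and Chrna6 at -1.18. The size of the falls thus depended on which array was left out.

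Genes that distinguish SN from VTA dopamine neurons were split. Of 18 SN-enriched genes, 15 were lower, with a median of -0.48, and 0 passed, while 9 were lower at an unadjusted p under 0.05 (5.56% of all genes). Aldh1a1, a retinaldehyde dehydrogenase of ventral SN neurons, was at -0.66 ± 0.28, and Sox6, a transcription factor of SN neurons, at -0.25 ± 0.14 (adjusted p = 0.434 and 0.556). Of 23 VTA-enriched genes, 16 were higher, with a median of 0.12 that came from SN (0.22) more than from VTA (-0.02), and 0 passed. Among them Lypd1, which modulates nicotinic receptors, was at 0.49 ± 0.13 and Calb1, the calcium buffer calbindin, at 0.35 ± 0.16, while Tacr3, the neurokinin 3 receptor, was at -0.996 ± 0.26 and the homeobox gene Otx2 at -0.55 ± 0.24 (adjusted p = 0.182, 0.465, 0.175 and 0.441).

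Per2, a gene of the circadian clock, was among the genes nearest to the threshold. It encodes a repressor of the clock's feedback loop and was at -0.19, -0.23 and -0.13 in SN controls and 0.72, 0.93 and 0.89 after MPTP. In VTA it was at -0.04, -0.40 and 0.43 in controls and 0.91, 0.61 and 0.61 after MPTP. All 6 treated arrays lay above all 6 controls. The difference was 0.87 ± 0.14 (adjusted p = 0.0556), or 1.83-fold, and its 3 probe sets were all higher, from 0.37 to 1.20. Per3 was at 0.49 ± 0.10 (adjusted p = 0.0981), with all 6 probe sets higher, Cry1 at 0.57 ± 0.16 (adjusted p = 0.206), Npas2 at 0.40 ± 0.14 (adjusted p = 0.325) and Per1 at 0.31 ± 0.21 (adjusted p = 0.657). Of 24 clock genes measured, 17 were higher, with a median of 0.16, 0 passed, and 4 were higher at an unadjusted p under 0.05 (4.94% of all genes) with none lower. The median of the clock list was 0.25 in SN and 0.09 in VTA. Its mean was -0.424 on SN control array 1, -0.051 to 0.046 on the other controls and 0.03 to 0.162 on the treated arrays.

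Fmo2 is also on a list of 30 glucocorticoid-responsive genes, of which it was the 1 that passed. Of the list 18 were higher and 12 lower, with a median of 0.03. Plin4, a lipid droplet protein of the list, was at 0.90 ± 0.18 (adjusted p = 0.0981), with 0.72 in SN and 1.07 in VTA and no overlap in either. The widely used response genes Fkbp5, Sgk1, Tsc22d3 and Zbtb16 were at 0.11 ± 0.13, 0.05 ± 0.27, 0.04 ± 0.10 and -0.03 ± 0.15, and the sign of the last 3 turned when single arrays were left out. Cdkn1a, a cell cycle inhibitor also induced by p53, was at -0.62 ± 0.20 (adjusted p = 0.272).

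Among stress genes, Hspa1b came nearest to the threshold. It encodes the inducible chaperone HSP70 and was at 0.73, -0.12 and -0.30 in SN controls and 1.34, 0.85 and 1.05 after MPTP. In VTA it was at 0.01, -0.58 and -0.02 in controls and 1.25, 0.78 and 1.29 after MPTP. All treated arrays were above all controls. The difference was 1.14 ± 0.19 (adjusted p = 0.0684), or 2.20-fold, and its 3 probe sets lay between 0.79 and 1.32, 1 of which passed when probe sets were tested singly (adjusted p = 0.0273). Its near-identical neighbour Hspa1a, whose upstream window differs from that of Hspa1b in 3 of 250 bases, was at 0.62 ± 0.27 (adjusted p = 0.436), and the array may not separate the 2 transcripts. Of 26 heat shock chaperone genes, 17 were higher, with a median of 0.05 and 0 passed, and Hspb8, a small heat shock protein, was at -0.30 ± 0.13. Of 28 genes of the unfolded protein response, 16 were higher and 12 lower, with a median of 0.02. Its endoplasmic reticulum members Creld2 and Sdf2l1 were at 0.36 ± 0.12 and 0.49 ± 0.17, and Chac1, a target of the factor ATF4, at -0.51 ± 0.20 (adjusted p = 0.305, 0.323 and 0.398).

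None of the listed and measured genes of the respiratory chain, which MPP+ blocks at complex I, had an unadjusted p under 0.05 in limma's test. Of all genes, 10.5% had one. Of 37 complex I genes, 26 were lower and 11 higher, with a median of -0.03. Of 39 genes of complexes II to V, 25 were lower, with a median of -0.04. Proteasome and cytosolic ribosomal protein genes, with 31 and 30 measured, had medians of 0.00 and 0.01 and also 0 members at an unadjusted p under 0.05. Of 24 antioxidant genes and targets of the factor NRF2, 18 were lower, with a median of -0.05, among them the quinone reductase gene Nqo1 at -0.47 ± 0.15 (adjusted p = 0.289). Of 29 apoptosis genes and p53 targets, 18 were lower and 11 higher, with a median of -0.06. Hrk, a BH3-only inducer of neuronal apoptosis, was at 0.68 ± 0.14 with no overlap in either region (adjusted p = 0.114), and Tnfrsf1a, the tumour necrosis factor receptor, at -0.48 ± 0.14 (adjusted p = 0.242).

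Genes of ionotropic receptors, immediate early genes and pacemaking channel genes were more often higher than lower. Of 23 subunit genes of ionotropic glutamate and GABA receptors, 20 were higher, with a median of 0.17, against 45.3% of all genes, and 0 passed. The AMPA receptor subunits Gria2 and Gria3 were at 0.39 ± 0.09 and 0.42 ± 0.12 (adjusted p = 0.158 and 0.208), each without overlap in either region. Of 23 immediate early genes, 18 were higher, with a median of 0.15, including Nr4a1 at 0.49 ± 0.18 and Arc at 0.74 ± 0.27 (adjusted p = 0.328 and 0.346). The mean of the immediate early genes ranged from -0.5 to 0.24 over the control arrays and from -0.206 to 0.36 over the treated arrays, and so overlapped. Its lowest value came from SN control array 1, with 0.195 and 0.085 on the other SN controls. Synapsin II, Syn2, was at 0.45 ± 0.12 with all 6 probe sets higher, and the release regulator Cplx1 at -0.55 ± 0.16 (adjusted p = 0.194 and 0.221), while the 32 genes of vesicle release had a median of 0.02. Of 31 pacemaking channel genes, 21 were higher, with a median of 0.05. The calcium channel subunit Cacna2d1 was at 0.47 ± 0.15, and Kcnj11, the pore of the potassium channel that senses ATP, at -0.23 ± 0.09 (adjusted p = 0.259 and 0.392).

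Axon guidance genes were evenly split, with 19 of 38 higher and 19 lower and a median of 0.02. Next to Reln, the netrin receptor gene Unc5d was at 0.61 ± 0.13 (adjusted p = 0.128), while its ligand gene Ntn1 was at -0.68 ± 0.14 (adjusted p = 0.114) with no overlap in either region, at -0.999 in SN and -0.36 in VTA. The slit receptor gene Robo1 was at -0.44 ± 0.14 (adjusted p = 0.265). Of 24 neuropeptide genes, 16 were higher, with a median of 0.15, and the 2 with the smallest p, Tac2 at 1.31 ± 0.50 and Penk at 0.72 ± 0.33, had wide errors (adjusted p = 0.371 and 0.463). The mean of the neuropeptide list was -0.854 on SN control array 1. It was -0.303 to 0.239 on the other controls and -0.135 to 0.348 on the treated arrays. Without SN control array 1, Tac2 was at 0.88 and Penk at 0.52.

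Interferon-stimulated genes and genes of sterol synthesis were mostly lower. Of 30 interferon-stimulated genes, 23 were lower (54.7% of all genes), with a median of -0.25, 0 passed, and Oasl2 was at -0.75 ± 0.24 and the GTPase gene Igtp at -0.72 ± 0.24 (adjusted p = 0.283 and 0.297). In SN the mean of this list was -0.046, 0.446 and -0.176 in controls and 0.011, -0.064 and -0.296 after MPTP, and so overlapped. In VTA it was 0.095, 0.21 and 0 in controls and -0.059, -0.206 and -0.118 after MPTP. Irf9, a transcription factor that carries the interferon signal, was at 0.90 ± 0.21 (adjusted p = 0.138), with a sign opposite to most of the list. The antigen presentation genes had a median of -0.10 over 17, with 12 lower. Of 30 genes of sterol and fatty acid synthesis, 25 were lower, with a median of -0.14, and Hsd17b7 and Mvd, enzymes of cholesterol synthesis, were at -0.41 ± 0.10 and -0.38 ± 0.12, whereas the desaturase gene Fads1 was at 0.45 ± 0.17 (adjusted p = 0.14, 0.287 and 0.352). Of 32 lysosome and autophagy genes, 21 were lower, with a median of -0.08. The 15 familial Parkinson disease genes and close relatives had a median of -0.02, with Sncg, gamma-synuclein, at -0.86 ± 0.30 and Park7 at -0.18 ± 0.11 (adjusted p = 0.315 and 0.592).

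**Figure D4:**
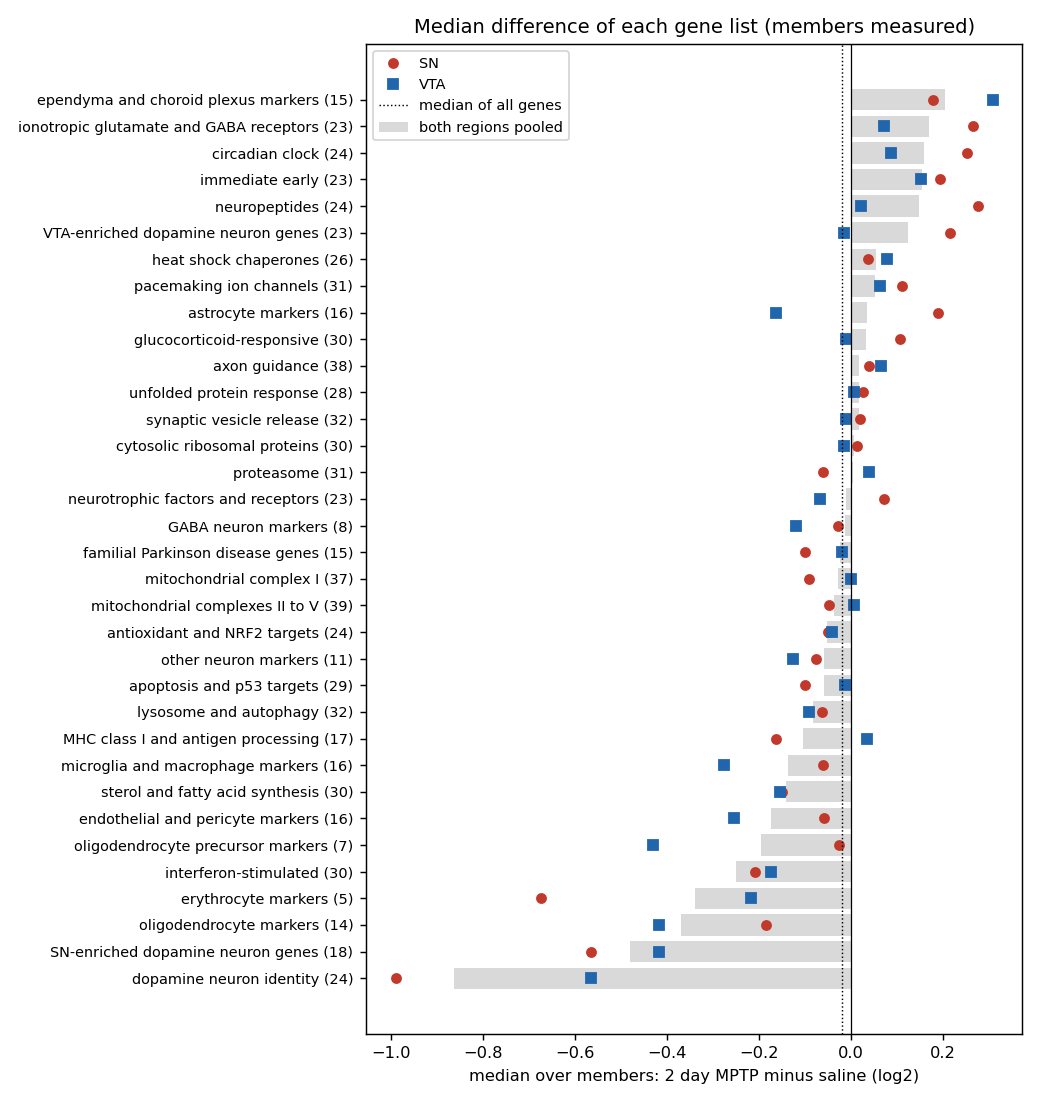
Median difference between 2 days of MPTP and saline (x axis, log2) over the measured members of 34 gene lists (y axis, number of members in brackets), as grey bars for both regions and as points for SN and VTA. Dopamine neuron identity has the lowest median, -0.86, and the dotted line marks the median of all genes, -0.02.

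Among other cells that the captured material could hold, markers of oligodendrocytes and their precursors, vessels, microglia and erythrocytes were mostly lower. Astrocyte markers were mostly higher. Of all genes, 54.7% were lower. Of 14 oligodendrocyte markers, 13 were lower, with a median of -0.37, and 8 were lower at an unadjusted p under 0.05 (5.56% of all genes), including Mog at -0.69 ± 0.20 and Aspa at -0.56 ± 0.14 (adjusted p = 0.221 and 0.163). The mean of these markers ranged from -0.063 to 0.487 over the control arrays and from -0.38 to 0.015 over the treated arrays. Their precursors' 7 markers had a median of -0.20, the 16 endothelial and pericyte markers -0.17 (13 lower, with the pericyte gene Vtn at -0.77 ± 0.17), the 16 microglia and macrophage markers -0.14 (14 lower) and the 5 erythrocyte markers -0.34 (5 lower). The endothelial and pericyte markers had a median of -0.06 in SN and -0.25 in VTA. Microglia and macrophage markers were at -0.06 and -0.28. These 2 lists had their lowest array means, -0.487 and -0.395, on VTA array 1 of the 2 day group. The 16 astrocyte markers had a median of 0.04 (11 higher), with 0.19 in SN and -0.16 in VTA, and Gfap was at -0.59 ± 0.24. The 8 markers of GABA neurons and the 11 of other neurons had medians of -0.01 and -0.06. Of the GABA neuron markers, 3 were lower and 1 was higher at an unadjusted p under 0.05 (5.56% and 4.94% of all genes). Since values are centred, it is not known whether any of these markers was above background. The part of other cells in the differences of the genes above was not tested.

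Of 15 ependyma and choroid plexus markers, 12 had a higher mean, against 45.3% of all genes, with a median of 0.20. In both regions 8 of the 15 were higher and 2 lower. Besides Ccdc153, Capsl, another gene of ciliated cells, was at 1.72 ± 0.35 (adjusted p = 0.102), with 0.96 in SN and 2.48 in VTA. The mean of these markers ranged from -0.416 to 0.025 over the control arrays and from -0.236 to 0.721 over the treated arrays, and so overlapped. Ttr, the transthyretin gene that choroid plexus expresses at a very high level, ran from -2.72 to 5.14 over the control arrays and from -2.87 to 5.33 over the treated arrays, with values above 2 on 1 control array and 3 treated arrays. Ttr was chosen after its values were seen.

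Set beside the same 6 control arrays, the arrays of 10 days of MPTP gave other values for some of these genes and like values for others, and the difference between 2 and 10 days was not tested here. The 10 day comparison called 3 genes (0.0165%). Wdfy1 was at -0.97 after 2 days and -0.08 after 10 days, Fmo2 at 0.95 and -0.10, Per2 at 0.87 and -0.18, Hspa1b at 1.14 and -0.21, and Plin4 at 0.90 and -0.65. Ccdc153 was at 1.45 after 2 days and 1.47 after 10 days, Miat at 0.97 and 0.96, Meg3 at 0.81 and 0.72, 9530059O14Rik at 1.15 and 0.83, and Pop4 at -0.88 and -0.84. The dopamine neuron identity list had a median of -0.86 after 2 days and -0.34 after 10 days. Since both sets of differences use the same controls, a control array that stands apart moves both.

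**Figure D5:**
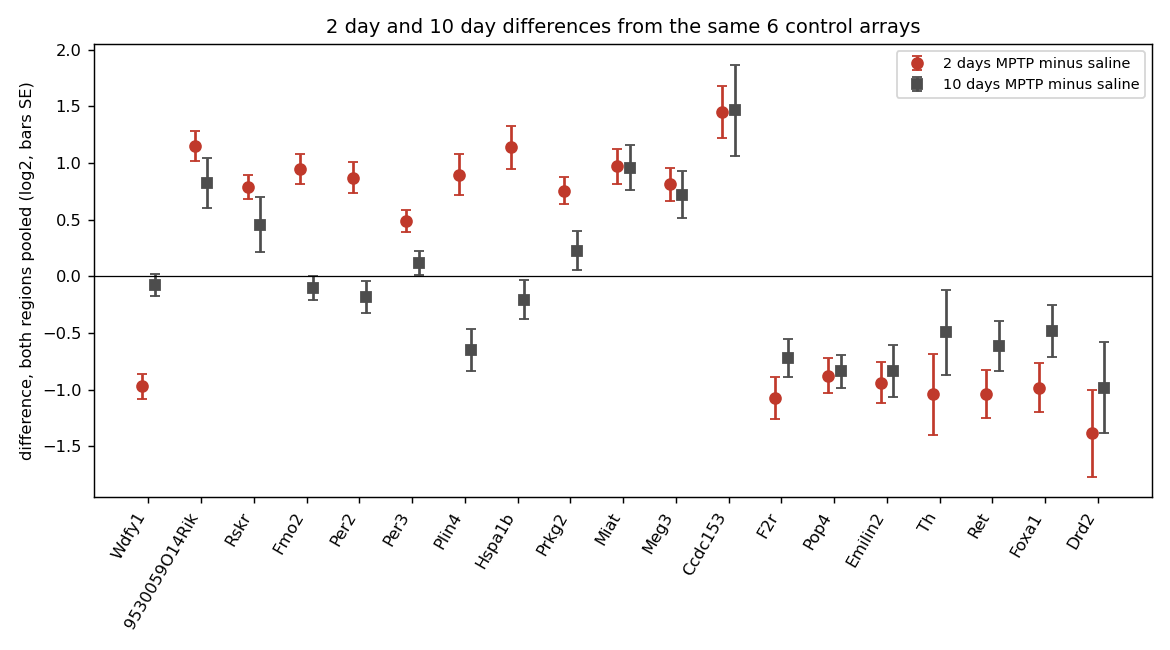
Pooled difference from the 6 control arrays (y axis, log2, bars are SE) after 2 days (circles) and 10 days (squares) of MPTP for 19 genes (x axis). Wdfy1 is at -0.97 and -0.08, while Miat is at 0.97 and 0.96.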

How the data were processed

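RNA of laser-captured neurons was extracted, amplified into cDNA, biotin labelled and hybridised to Affymetrix arrays, per the labels' protocols. The authors deposited log2 values, RMA normalised per the submitters' processing notes, in GeneSpring GX 10.0 per the series' design text. That each of the 45101 probe sets has a median of 0 over the 18 arrays (within 5e-07) was found from the deposited log2 values and is stated in no source. Dim probe sets could therefore not be filtered out. Precision is limited by the 6 arrays per group.

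Probe sets with 1 gene symbol (34945, with 932 having several and 9211 none) were averaged per gene, giving 18193 genes, of which 9010 have several probe sets. The platform annotation can be old, and 99.42% of these probe sets had a gene ID in RefSeq's GRCm38.p6 table, from which symbols were updated. The test was limma's moderated linear model (lmFit and eBayes of version 3.58.1, R 4.3.3, region and treatment as terms, 12 arrays, 9 residual and 3.83 prior degrees of freedom), two-sided, with Benjamini-Hochberg adjustment over all genes at a threshold of 0.05. The 10 day values come from the same model on control and 10 day arrays. The fit was tested on simulated data. Plots used matplotlib 3.10.9 under Python 3.11.15.

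The comparison, the 34 gene lists and the rule for named genes were chosen with earlier results of these data known. The rule takes up to 15 genes each way among those that passed without overlap, else the genes of smallest p up to 10 each way, 2 members of each list each way, and Th, Slc6a3, Slc18a2 and Ddc. Clone names are skipped, and 9530059O14Rik was named because few genes passed. Of the 122 genes given under each alternative, 37 were named after their values were seen, mostly as known members of a list. Not every eligible gene is printed.

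Alternatives were the summary of probe sets, the arrays in the fit, normalization between arrays, a filter on spread, array weights, robust eBayes, treating arrays of the same number as linked, and leaving out arrays.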

Additional observations from a re-analysis of the deposited data

Results flagged for a closer look

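In 7 of 52 sets of 6 arrays of 1 treatment that were examined, 1 array lay farther from the other 5 than Dixon's limit allows. Chance gives this in about 1 of 20 independent sets. These sets read the same 12 arrays over 25 genes and are not independent, so the count cannot be judged by that rate. VTA control array 1 was the array in 4 of them. It had the lowest Th signal of the control arrays, -0.898 against 0.574 to 1.45 on the others, the lowest Slc6a3 signal, -0.983 against 0.417 to 0.998, and the lowest Ddc signal, -0.968 against 0.344 to 0.437. It also had the lowest control signal of Ppp1r14a, 0.137 against 0.405 to 0.53.

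SN control array 1 had an Emilin2 signal of 1.55, against 0.164 to 0.648 on the other controls. VTA array 1 of the 2 day group had an SD of its log2 values of 0.59, against 0.252 to 0.325 on the other 5 arrays of that treatment, and a Ppp1r14a signal of 0.293, against -0.686 to -0.419.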

How the results depend on the processing

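The count of 4 genes past the threshold (3 higher and 1 lower) was unchanged with each array centred on its median and with robust eBayes. It became 3 (1 and 2) over single probe sets, where 1 of the 4 genes, Wdfy1, was kept, 0 (0 and 0) with the probe set of largest SD per gene, 16 (12 and 4) in 6 group means over all 18 arrays, 2 (1 and 1) in 4 group means over the 12 arrays, 17 (13 and 4) after a repeated quantile normalization, 18 (14 and 4) among genes of SD above the median, 143 (88 and 55) with array weights, and 10 (7 and 3) without SN control array 1 and VTA 2 day array 1. All 4 genes were kept by the repeated quantile normalization, the SD filter and the array weights, and 0 by the probe set of largest SD. With 1 of the 12 arrays left out, the count ran from 0 to 32, the higher genes from 0 to 14 and the lower genes from 0 to 18. It was 0 without SN 2 day array 2, 2 without SN control array 2 or SN 2 day array 3, 8 without SN control array 1, 10 without VTA control array 3, 12 without VTA 2 day array 1 and 32 without VTA control array 1. The cause was not tested.

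Same-numbered SN and VTA arrays of a treatment correlated at 0.062 to 0.23 in their deviations from the group means, all 6 above 0. Arrays of different numbers correlated at -0.285 to 0.15. Of 6 SN arrays, 5 correlated best with the VTA array of their own number. The labels do not say whether the numbers pair the arrays, and the main fit treats them as unlinked. The count of genes depended on how such a link was treated. A block on the replicate number gave 16 genes (11 and 5), a random block of treatment by number 2 (1 and 1), and averaging same-numbered arrays 0 (0 and 0).

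The difference between the VTA and SN responses gave 0 genes in limma over all 18 arrays and in each of the 12 fits with 1 array left out, and with all 12 arrays 488 genes had an unadjusted p under 0.05. With single arrays left out, signs turned for Pts (-0.101 to 0.299), Sgk1 (-0.13 to 0.234), Tsc22d3 (-0.0116 to 0.0906) and Zbtb16 (-0.12 to 0.048), and Zbtb16 was at 0.0452 after the repeated quantile normalization. Counted over every list under every alternative, a list median moved by more than the spread between arrays in 15 cases. Among these cases the median of the unfolded protein response was -0.05 with the probe set of largest SD per gene and 0.19 among genes of SD above the median.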
